A study of Mus musculus with 10 samples.

Results

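The 9 genes described here are the Hedgehog ligands Shh and Ihh, the Hedgehog receptor Ptch1 and decoy receptor Hhip, the transcription factors Gli1, Gli2 and Gli3, and the basement membrane proteins Fras1 and Frem2. They are 9 of the 18193 genes that the arrays measured with a probe set of 1 gene symbol, and they were chosen by name, with earlier results of these data known. All 9 were found, through 19 of the 45101 probe sets, and the brightest probe set of a gene, by its mean of all 10 arrays, stands for that gene.

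The arrays held RNA of differentiating mouse embryonic stem cells of the strain C57BL/6, taken on day 8, 17 or 24 of differentiation. On day 8 there was a control culture and one with KGF (keratinocyte growth factor, an epithelial mitogen). On days 17 and 24 there were a control culture, one with KGF, one with DCI and one with KGF and DCI. The labels do not spell out DCI, and it is taken here as the dexamethasone and cAMP-raising treatment named in the series title, which concerns differentiation into the surfactant-producing type II cells of the lung alveolus. Each of the 10 conditions had 1 array, so there are no replicates, and p-values measure the spread around a model in which day, KGF and DCI add up. The cultures were labelled as embryonic stem cells, and the pluripotency factors Pou5f1 and Nanog read log2 3.93 to 6.24 and 4.48 to 6.85, while the epithelial genes Cdh1 and Epcam read 9.60 to 11.31 and 9.36 to 11.90 and the mesenchymal Pdgfra 10.06 to 11.33. Markers of several kinds of cell were thus present in each culture, and in a mixture fewer cells of a type and less RNA per cell cannot be told apart. The untreated day 8 array differed from the other 9 in signs of RNA quality and in a spike-in. Actb had 1.05 between its 3′ and 5′ probe sets (log2), where the others had 0.46 to 0.62. For Gapdh this was 0.44 against -0.02 to 0.12, and for the spike-in dap 5.34 against 1.49 to 2.998. The day 8 differences of the 9 genes, and the counts over gene lists, are therefore also given without it. Within day 17, dap and Actb also differed with DCI, while Gapdh overlapped. There dap had 2.998 and 2.95 with DCI against 2.004 and 1.99 without, and Actb 0.62 and 0.61 against 0.52 and 0.48. At day 24 dap had 1.49 and 1.58 with DCI against 1.74 and 1.64 without, and Actb 0.59 and 0.54 against 0.49 and 0.51. Gapdh at day 24 had 0.031 and 0.042 with DCI against 0.021 and -0.007 without, a small gap with no overlap. The part of these signals in the DCI differences was not tested.

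Hedgehog proteins are secreted signals that bind Ptch1 on the receiving cell, which frees the membrane protein Smo to act in the primary cilium. Gli2 and Gli3 then shift from repressor to activator forms, and Gli1, Ptch1 and Hhip are transcribed as targets, and Ptch1 and Hhip in turn limit the signal. Protein kinase A, the kinase activated by cAMP, favours the repressor forms of Gli proteins. In the embryonic lung and gut the epithelium makes Shh and the mesenchyme around it responds, and Ihh is known from cartilage, gut epithelium and visceral endoderm. Fras1 and Frem2 are large proteins that epithelial cells place in the basement membrane as a complex with Frem1, and their loss causes the blistering and organ defects of Fraser syndrome.

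RefSeq upstream sequences (GRCm38.p6) were held for 6 of the 9 genes. Those of Ihh and Gli3 are shown because their levels went opposite ways from day 17 to day 24 and because their windows lie outside the annotated gene. Each window is the 250 bases before the annotated start, read 5′ to 3′ on the gene's strand. Capitals mark CCACCC, the core of the GLI binding site, or its reverse complement GGGTGG, and TGACG, the short form of the cAMP response element, or its reverse complement CGTCA.
Ihh (chr1:74951673-74951922, minus strand): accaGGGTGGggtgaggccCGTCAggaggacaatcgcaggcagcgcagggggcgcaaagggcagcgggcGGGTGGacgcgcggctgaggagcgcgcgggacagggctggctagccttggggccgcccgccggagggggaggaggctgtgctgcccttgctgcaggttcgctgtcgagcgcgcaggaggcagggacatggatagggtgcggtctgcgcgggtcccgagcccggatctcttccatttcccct
Gli3 (chr13:15463473-15463722, plus strand): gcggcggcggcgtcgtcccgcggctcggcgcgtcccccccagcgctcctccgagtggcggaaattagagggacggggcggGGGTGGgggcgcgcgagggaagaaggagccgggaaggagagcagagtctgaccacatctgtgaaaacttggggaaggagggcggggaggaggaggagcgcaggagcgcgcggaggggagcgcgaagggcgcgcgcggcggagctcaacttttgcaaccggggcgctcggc
The Ihh window held GLI cores at -246 and -181 and the short cAMP site at -231, counted from the start site, and the Gli3 window held a GLI core at -170. A GLI core was found in 4 of the 6 windows, those of Ihh, Gli2, Gli3 and Hhip, against 28.1% of all 32851 windows of this length. The 6 windows were 59.6% to 78.4% G and C, where the median of all windows was 52.4%. The core is itself rich in C or G, so this comparison cannot separate the core from base composition. The windows of Ptch1, Gli2, Hhip and Frem2 did not lie outside the annotated gene. The longer site GACCACCCA, searched on both strands and containing the core, was in 0 of the 6 and in 0.225% of all windows. The short cAMP site was in the windows of Ihh and Hhip and in 17.8% of all windows. In Hhip it was part of the full element TGACGTCA at -75, which 1.55% of all windows held. These matches describe letters in the windows and are not evidence of binding.

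Across the time course the Hedgehog receptor and transcription factor genes fell from day 8 to day 24, Shh fell with them, Ihh rose between days 17 and 24, and Fras1 and Frem2 were highest at day 17. With DCI, Ihh and Gli2 rose and Frem2 fell. In the model over all 10 arrays, fitted with limma's moderated test and Benjamini-Hochberg adjustment over the 18193 genes, 8 of the 9 genes passed at an adjusted p under 0.05 between days 8 and 17, 2 higher and 6 lower, where 42.4% of all genes passed (21.4% higher and 21% lower). Between days 17 and 24, 8 of 9 passed again, 1 higher and 7 lower, where 37.3% of all genes passed (14.8% higher and 22.5% lower). The balance of directions over all genes depended on scaling. Of the genes that passed between days 8 and 17, 50.4% were higher with the deposited values, 40.4% after a second quantile normalisation and 27.1% after centring each array on its median. Centring moved the median difference of all genes by -0.23 in that step. Between days 17 and 24 the share was 39.6%, and 56.8% after centring. Those of the 9 genes that passed kept their directions under both scalings, except that Fras1 between days 8 and 17 and Gli1 between days 17 and 24 no longer passed after centring. Because these genes were picked with earlier results in view, the adjusted p-values describe the fit and are no independent evidence.

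**Figure D1:**
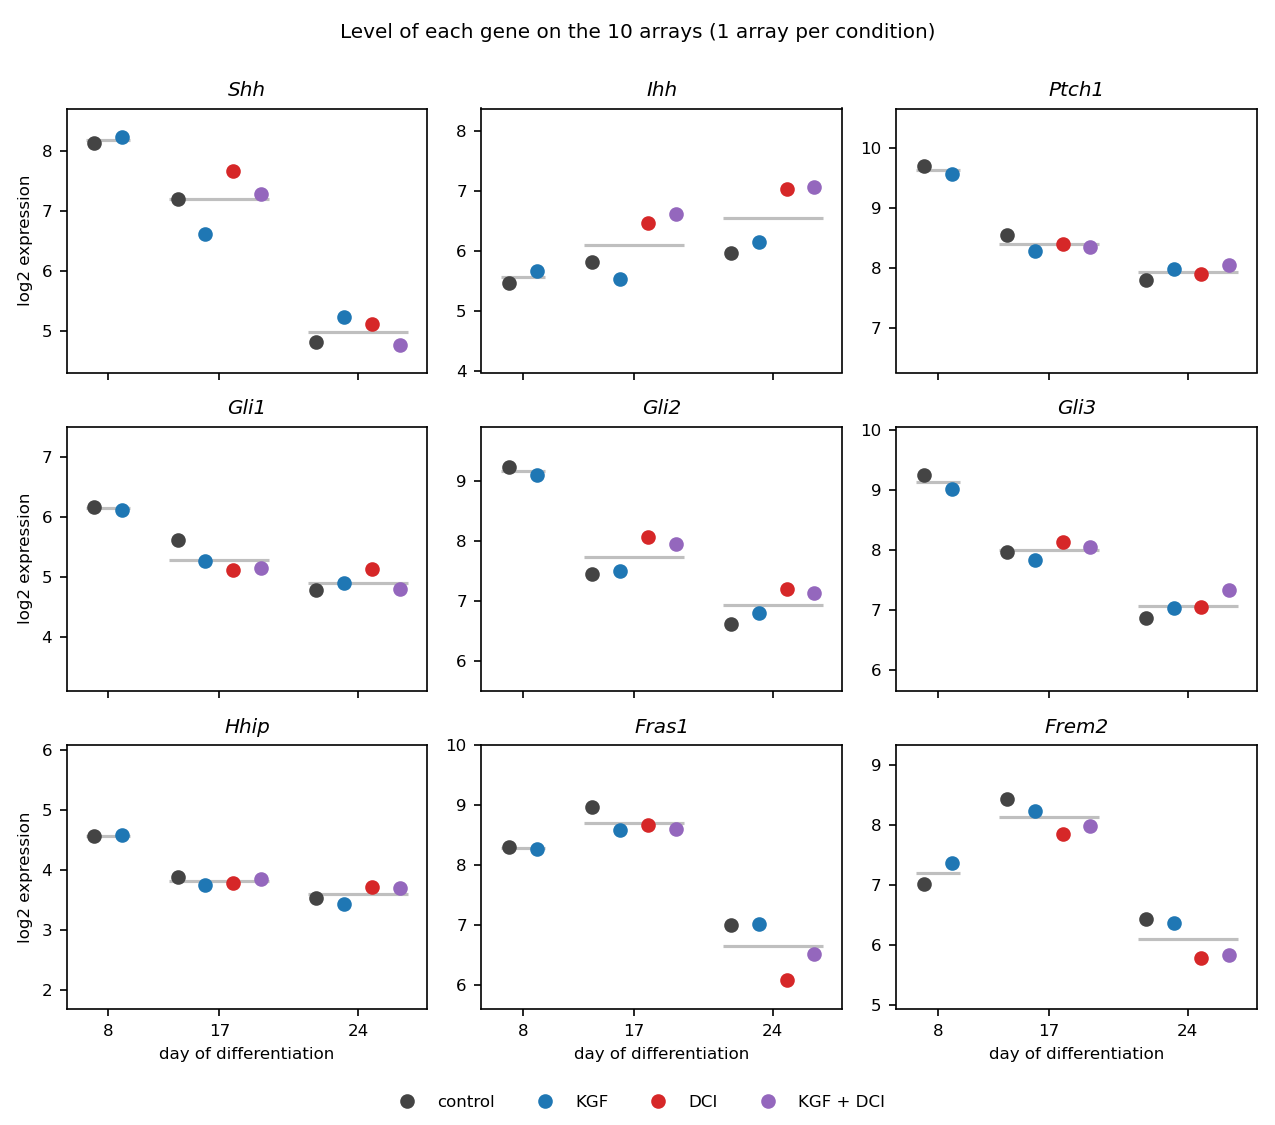
Log2 expression of each of the 9 genes on the 10 arrays, by day of differentiation, with 1 point per array coloured by treatment and a grey line at the mean of a day's arrays; each panel spans the same log2 range. Gli2 and Gli3 step down from day 8 to day 24, Shh drops to 4.78 to 5.24 at day 24, Ihh is highest with DCI, and Fras1 and Frem2 peak at day 17.

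Shh, the main Hedgehog ligand of foregut epithelium, read log2 8.13 in the day 8 control and 8.24 with KGF. At day 17 it read 7.20 (control), 6.63 (KGF), 7.68 (DCI) and 7.29 (both). On day 24 it read 4.83, 5.24, 5.12 and 4.78 in the same order. The 3 days did not overlap, with day 8 highest and day 24 lowest. The level fell by 1.11 ± 0.24 (SE) on the log2 scale from day 8 to day 17 (2.15-fold, limma adjusted p = 0.00319) and changed by -2.21 ± 0.18 from day 17 to day 24 (4.62-fold, adjusted p = 8.82e-06), lower in 4 of 4 matched pairs of arrays. Without the day 8 control array, the first difference was -1.27 (adjusted p = 0.0147). The other Shh probe set, 1427571_at, stayed at 3.14 to 3.76 on all arrays and showed no such fall (0.04 and -0.13 on the log2 scale), so the day pattern of Shh rests on 1436869_at.

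Ihh, the second ligand, went the other way from day 17 to day 24 and had 1 probe set. It read 5.45 and 5.66 at day 8 without and with KGF. At day 17 it read 5.81 (control), 5.52 (KGF), 6.45 (DCI) and 6.61 (both). At day 24 it read 5.96, 6.14, 7.02 and 7.05. The 4 cultures with DCI were the 4 highest, and on each day their values did not overlap those without DCI. DCI raised Ihh by 0.93 ± 0.11 on the log2 scale (1.90-fold, limma adjusted p = 0.000215), higher in 4 of 4 matched pairs. On day 17 the difference was 0.87 ± 0.14 (adjusted p = 0.00403) and on day 24 0.99 ± 0.14 (adjusted p = 0.00106). The day 17 value was 0.78 and no longer passed without the day 17 array with both treatments (adjusted p = 0.0695). From day 17 to day 24 Ihh rose by 0.45 ± 0.11 (adjusted p = 0.00737). The 2 days overlapped, at 5.52 to 6.61 and 5.96 to 7.05. The rise was 0.15 between the control arrays and 0.45 to 0.62 in the other matched pairs. From day 8 to day 17 Ihh differed by 0.08 (95% confidence interval -0.23 to 0.39), which did not pass, and without the day 8 control array by -0.012.

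Markers of epithelium and endoderm also differed with DCI. Of all genes 15.4% passed for DCI over all arrays, 9.64% at day 17 and 19.4% at day 24. Of 15 epithelial genes 8 were higher and 1 lower over all arrays, and the log2 of their summed level rose from 13.75 to 14.06 without DCI to 14.04 to 14.33 with it at day 17, and from 14.19 to 14.42 to 14.66 to 14.83 at day 24. With KGF none of the 15 passed, although all 15 differences lay above 0. Their median was 0.32 for KGF and 0.33 for DCI. Of 8 endoderm and foregut genes, 3 were higher and none lower with DCI over all arrays. On single days 2 were higher and none lower at day 17, and 2 were higher and 1 lower at day 24. Of 10 visceral endoderm and liver genes, DCI came with 8 higher and none lower at day 17, while at day 24 1 was higher and 6 lower. Their summed level was 13.68 to 13.94 without and 14.62 to 14.63 with DCI at day 17, and 13.78 to 13.89 and 13.29 to 13.65 at day 24. No cartilage gene of 8 passed at day 17 and 1 was higher at day 24, where the summed level was 7.997 to 8.06 without and 8.11 to 8.19 with DCI. The part of these cell types in the Ihh result was not tested.

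Ptch1, the Hedgehog receptor and a target of the pathway, read 9.70 in the day 8 control and 9.58 with KGF. At day 17 the 4 arrays lay at 8.55 (control), 8.29 (KGF), 8.40 (DCI) and 8.36 (both), and at day 24 at 7.81, 7.99, 7.90 and 8.06. The 3 days did not overlap, and within a day the 4 treatments stayed close. Ptch1 fell by 1.25 ± 0.11 from day 8 to day 17 (2.38-fold, limma adjusted p = 5.56e-06; -1.18 without the day 8 control array) and by 0.46 ± 0.08 from day 17 to day 24 (adjusted p = 0.00157). With DCI it differed by 0.02 (95% confidence interval -0.17 to 0.20). The 2 dimmer Ptch1 probe sets did not fall from day 17 to day 24: 1450824_at gave 0.35 and passed in the opposite direction (adjusted p = 0.0318), and 1439663_at gave 0.05. From day 8 to day 17 they gave -0.19 and -0.82, the latter past the threshold. With the mean of the 3 probe sets the day 24 difference was -0.02 and did not pass (adjusted p = 0.888).

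Hhip, which encodes a membrane-bound decoy that binds Hedgehog ligands, was the dimmest of the group within the distribution of all genes, at percentile 16.5 by mean level, and array values this low are compressed. It read 4.55 and 4.57 at day 8, 3.74 to 3.87 at day 17 and 3.43 to 3.71 at day 24. Hhip fell by 0.81 ± 0.12 from day 8 to day 17 (limma adjusted p = 0.000344; -0.84 without the day 8 control array). Its difference of -0.22 from day 17 to day 24 did not pass (adjusted p = 0.0944), although it was lower in 4 of 4 pairs. After a second quantile normalisation it was -0.29 and passed (adjusted p = 0.0286). The other 3 Hhip probe sets lay between 2.50 and 3.98 and gave -0.27, -0.30 and -0.40 from day 8 to day 17, of which the last passed.

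Gli1, the transcription factor whose own transcription is the usual readout of the pathway, read 6.17 and 6.13 at day 8. At day 17 it read 5.61 (control), 5.28 (KGF), 5.12 (DCI) and 5.15 (both), and at day 24 it read 4.78, 4.90, 5.14 and 4.80. Day 8 stood above all later arrays, while days 17 and 24 overlapped through the day 24 DCI array. The level fell by 0.81 ± 0.17 from day 8 to day 17 (1.75-fold, limma adjusted p = 0.00308; -0.86 without the day 8 control array). From day 17 to day 24 it fell by 0.39 ± 0.13 (adjusted p = 0.0390). That second call was lost when any 1 array other than the 2 with DCI alone was left out, with differences of -0.40 to -0.28 and adjusted p-values of 0.0511 to 0.141. It was also lost after centring (-0.30, adjusted p = 0.117) and with the matched pairs of arrays as blocks (adjusted p = 0.0787). With DCI the Gli1 difference was -0.31 at day 17 (95% confidence interval -0.69 to 0.07) and 0.13 at day 24 (-0.25 to 0.50), neither past the threshold.

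Gli2, the main activator form in many tissues, showed the largest fall of the group from day 8 to day 17. It read 9.23 and 9.10 at day 8, against 7.44 (control), 7.502 (KGF), 8.07 (DCI) and 7.94 (both) at day 17 and 6.62, 6.80, 7.20 and 7.14 at day 24. The days did not overlap, and on each day both DCI arrays lay above both arrays without DCI. Gli2 fell by 1.67 ± 0.10 from day 8 to day 17 (3.19-fold, limma adjusted p = 3.22e-07; -1.60 without the day 8 control array) and by 0.80 ± 0.08 from day 17 to day 24 (adjusted p = 2.60e-05). DCI raised it by 0.49 ± 0.08 (1.41-fold, adjusted p = 0.00146), higher in 4 of 4 matched pairs. The second Gli2 probe set, 1446086_s_at, whose name marks it as able to bind several transcripts, gave 0.43 for DCI (adjusted p = 0.0352), -1.36 from day 8 to day 17 and, without passing, -0.26 from day 17 to day 24. Within a day the DCI difference was 0.53 ± 0.11 at day 17 (adjusted p = 0.0113) and 0.46 ± 0.11 at day 24 (adjusted p = 0.0140). The day 17 call was lost without the control or the DCI array of that day (0.44 to 0.50), and the day 24 call without the control, the DCI or the combined array of that day (0.35 to 0.51). The second probe set did not pass on either day. It gave 0.51 at day 17 (limma adjusted p = 0.0876) and 0.36 at day 24 (adjusted p = 0.183). With the mean of the 2 probe sets the day 24 difference was 0.41 and did not pass (adjusted p = 0.0549). Both probe sets are annotated to the same source sequence.

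Gli3, mainly a repressor when no ligand is present, read 9.25 and 9.02 at day 8, 7.97, 7.84, 8.14 and 8.06 at day 17, and 6.87, 7.03, 7.05 and 7.33 at day 24 (control, KGF, DCI and both on the later days). As for Gli2, the 3 days did not overlap. It fell by 1.24 ± 0.12 from day 8 to day 17 (2.37-fold, limma adjusted p = 1.22e-05; -1.10 without the day 8 control array) and by 0.93 ± 0.09 from day 17 to day 24 (1.91-fold, adjusted p = 2.97e-05). A second bright probe set, 1455154_at, gave -1.31 and -1.04, and the dim 1450525_at, at 3.90 to 4.66, gave -0.10 and -0.01. The DCI difference of 0.21 ± 0.09 was positive in 4 of 4 pairs and did not pass (adjusted p = 0.155).

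**Figure D2:**
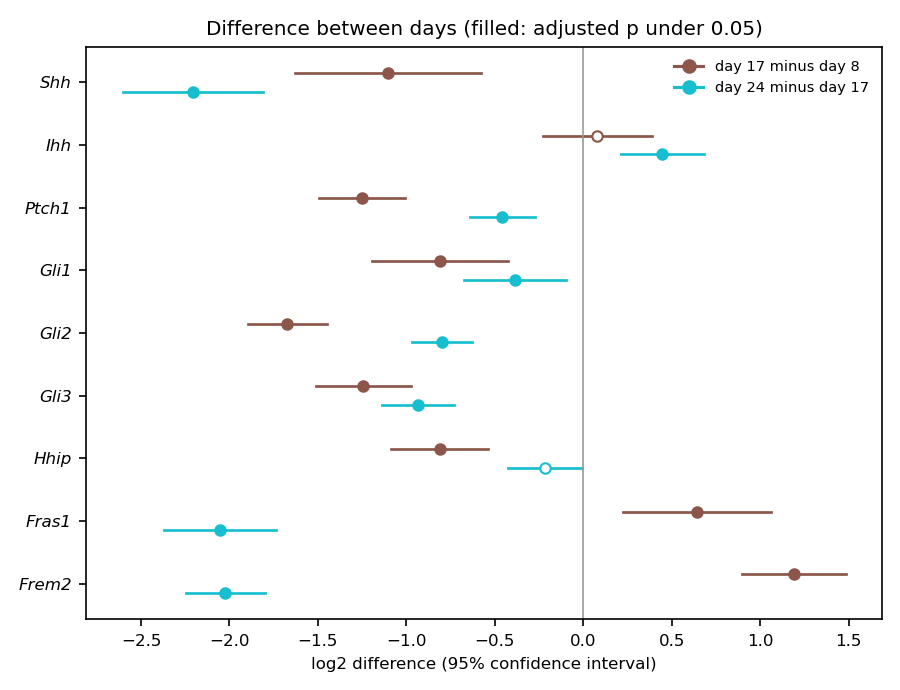
Difference between days for each gene on the log2 scale, from the additive model over 10 arrays, with points at the estimate, lines for the 95% confidence interval and filled points for an adjusted p under 0.05. Shh, Ptch1, Gli1, Gli2, Gli3 and Hhip lie below 0 in both steps, Hhip with an open point in the second, and Fras1 and Frem2 are above 0 from day 8 to day 17 and about -2 from day 17 to day 24.

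The Fras1 and Frem2 genes followed each other. Fras1 read 8.30 and 8.27 at day 8, then 8.98 (control), 8.59 (KGF), 8.68 (DCI) and 8.60 (both) at day 17, and 7.01, 7.02, 6.08 and 6.52 at day 24. Frem2 read 7.01 and 7.38 at day 8, 8.44, 8.24, 7.85 and 7.99 at day 17, and 6.44, 6.37, 5.79 and 5.83 at day 24. For both genes every day 17 array lay above every day 8 array, and every day 24 array below every other.

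From day 17 to day 24, Fras1 fell by 2.05 ± 0.14 (4.15-fold, limma adjusted p = 2.82e-06) and Frem2 fell by 2.02 ± 0.10 (4.07-fold, adjusted p = 4.16e-07). The second Fras1 probe set, 1440765_at, fell by 1.16 (adjusted p = 0.000887 over all probe sets), and Frem2 had 1 probe set. From day 8 to day 17 Frem2 rose by 1.19 ± 0.13 (2.28-fold, adjusted p = 3.52e-05), and by 1.00 without the day 8 control array. The Fras1 rise of 0.64 ± 0.19 over the same step (adjusted p = 0.0176) no longer passed without the day 8 control, the day 8 KGF or the day 17 control array, at 0.61 to 0.66 with adjusted p-values of 0.0592 to 0.0934. After centring the rise was 0.41 and did not pass (adjusted p = 0.0593). The second Fras1 probe set gave -0.10 there.

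With DCI, Frem2 fell by 0.51 ± 0.10 (1.42-fold, limma adjusted p = 0.00663), lower in 4 of 4 matched pairs. On day 24 the Frem2 difference was -0.59 ± 0.11 (adjusted p = 0.00518), and both DCI arrays lay below both arrays without it. On day 17 it was -0.42 ± 0.11 (adjusted p = 0.0463), a call lost when any of the 8 arrays was left out (-0.54 to -0.30, adjusted p 0.0542 to 0.434). Fras1 with DCI was at -0.43 ± 0.14 over all arrays and did not pass (adjusted p = 0.0707). Without the day 17 KGF array it was -0.59 and passed (adjusted p = 0.00931). At day 24 alone Fras1 fell by 0.71 ± 0.16 (adjusted p = 0.0113), and at day 17 it differed by -0.14 (95% confidence interval -0.50 to 0.22). The day 24 call was lost without the control, the KGF or the DCI array of that day (-0.72 to -0.42, adjusted p 0.0611 to 0.10003), and the second Fras1 probe set gave 0.07.

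Cell type markers moved over the same days. Of all genes, 42.4% passed from day 8 to day 17 and 37.3% from day 17 to day 24. For DCI the shares were 15.4% over all arrays and 19.4% at day 24. Of 15 epithelial genes, 12 were higher and 3 lower from day 8 to day 17. Their median difference in that step was 1.00, and 0.93 without the day 8 control array. From day 17 to day 24, 11 of the 15 epithelial genes were higher and none lower. From day 8 to day 17 all 12 macrophage genes were higher, and the log2 of their summed level went from 8.65 to 8.78 at day 8 to 14.001 to 14.02 at day 17 without DCI. In the step from day 17 to day 24, 1 of the 12 was higher and 6 were lower. With DCI 11 of the 12 were lower, at 12.58 to 12.79 on day 17 and 12.06 to 12.32 on day 24, against 13.93 to 14.24 on day 24 without it. Of 12 mesenchymal genes, 7 were higher and 4 lower from day 8 to day 17, with a summed level of 14.59 to 14.68 at day 8 and 15.51 to 15.63 at day 17, and 5 were higher and 1 lower from day 17 to day 24, when it was 15.67 to 15.73. Without the day 8 control array the counts in the first step were 12 of 12 for macrophage genes and 7 higher and 5 lower for mesenchymal genes. Of 6 pluripotency genes 3 fell from day 17 to day 24, and at day 24 3 were higher with DCI, with a summed level of 8.73 to 9.504 against 7.76 to 8.19. Of 9 smooth muscle genes 3 were lower with DCI and none higher, at 12.45 to 12.51 against 12.94 to 13.18 on day 17 and 12.76 to 12.81 against 13.19 to 13.20 on day 24. Array values are relative to the other RNA on the array, and the part of these shifts in the 9 genes' day and DCI differences was not tested.

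**Figure D3:**
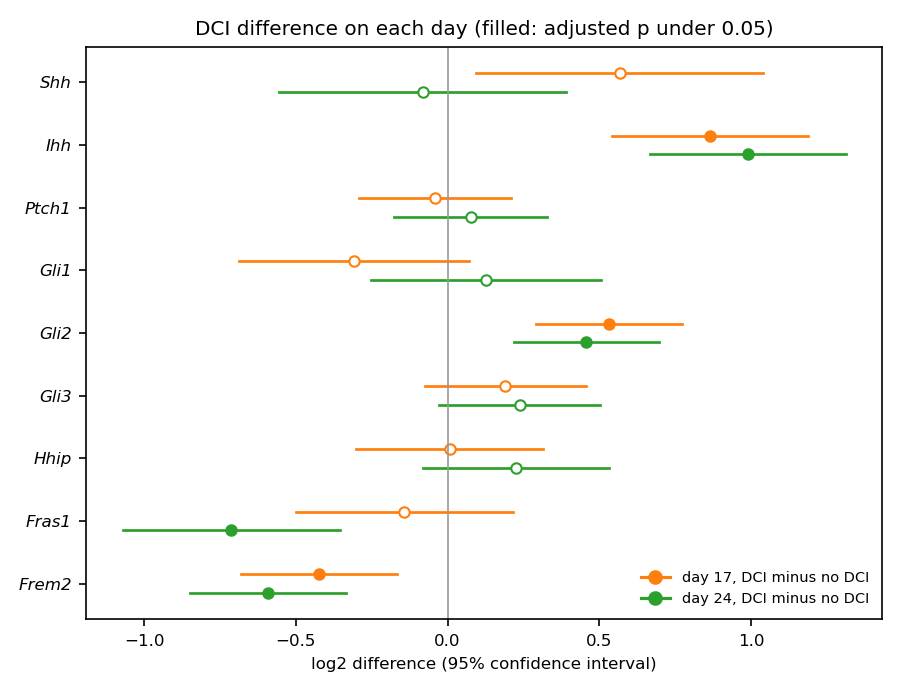
DCI minus no DCI on the log2 scale for each gene at day 17 and at day 24, from the model of the 8 arrays of those days, with points at the estimate, lines for the 95% confidence interval and filled points for an adjusted p under 0.05. Ihh (0.87 and 0.99) and Gli2 (0.53 and 0.46) lie above 0 on both days and Frem2 (-0.42 and -0.59) below 0 on both.

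Counting all 9 genes, DCI raised 2 (Ihh and Gli2) and lowered 1 (Frem2) over all arrays, which is 3 of 9 where 15.4% of all genes passed in limma (7.27% higher and 8.09% lower). At day 17 the same 3 genes passed, beside 9.64% of all genes (5.63% higher and 4.01% lower). At day 24 Fras1 passed as well, which made 4 of 9, beside 19.4% of all genes (7.99% higher and 11.4% lower). Of all genes that passed at day 24, 41.3% were higher, and 57.9% after centring, where the counts of the 9 stayed at 2 higher and 2 lower. The median DCI difference of the 9 was 0.12 against -0.01 for all genes. The difference between the days in the effect of DCI was tested for each gene, and 0 of 9 passed (1 at an unadjusted p under 0.05, Fras1), where 2.51% of all genes passed (0.533% higher and 1.97% lower). Of those, 21.3% were positive, and 46.7% after centring. Fras1 had an interaction of -0.57 (adjusted p = 0.253) and Shh of -0.65 (adjusted p = 0.328). Shh read higher with DCI at day 17 in 2 of 2 pairs (0.57 ± 0.21, adjusted p = 0.145, not past the threshold) and differed by -0.08 at day 24. Without the day 24 control array the Shh interaction was -1.08 and passed (adjusted p = 0.0414), and the Shh difference at day 17 passed without the day 24 control or the day 24 KGF array.

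For KGF 0 of 9 genes passed the threshold in limma, and 0 had an unadjusted p under 0.05. Over all genes 0.0055% passed for KGF, with 1466 genes at an unadjusted p under 0.05. The 9 differences lay between -0.16 for Shh and 0.06 for Ihh, and their 95% confidence intervals together spanned -0.51 to 0.27. For the KGF by DCI interaction 0 of 9 passed, 0 had an unadjusted p under 0.05, and 0% of all genes passed, with 267 at an unadjusted p under 0.05. Those intervals were wide, from -1.19 to 1.07 across the genes.

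**Figure D4:**
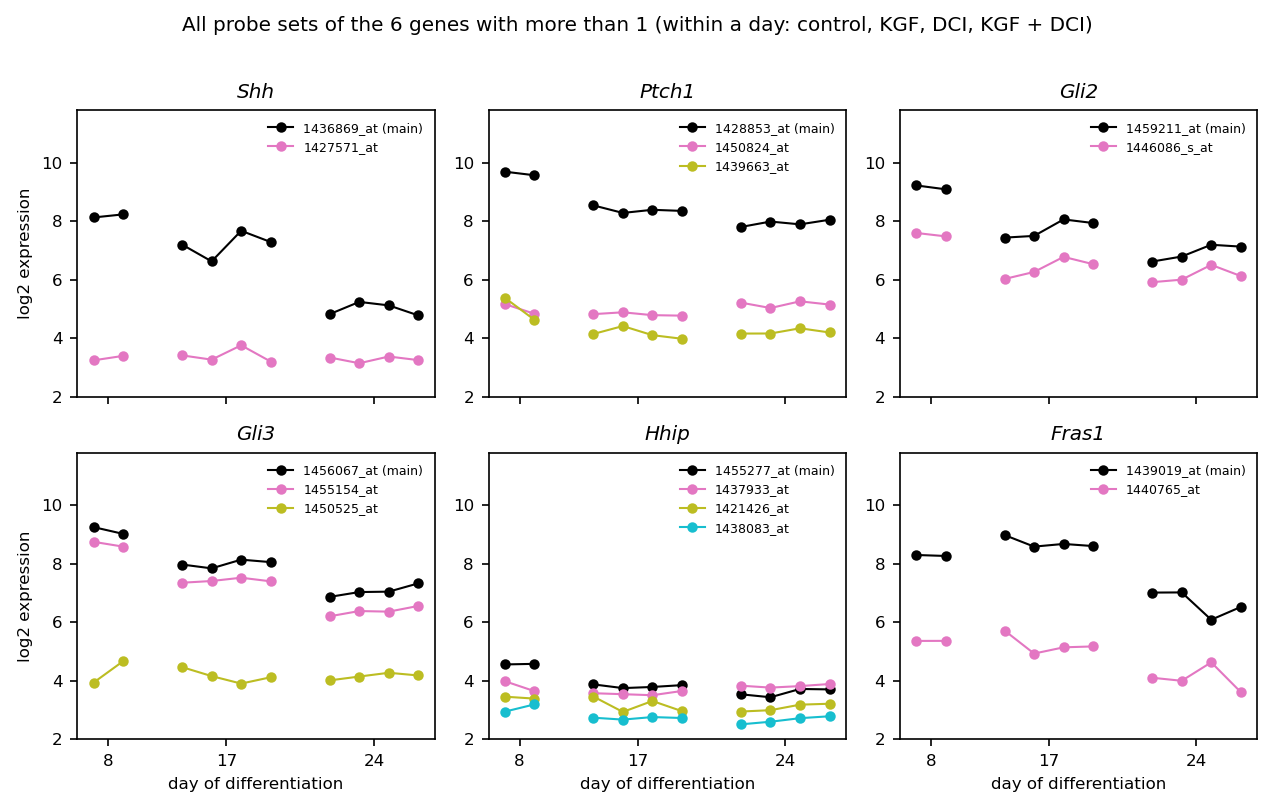
Log2 expression of every probe set of the 6 genes with more than 1, on the 10 arrays in the order control, KGF, DCI and KGF with DCI within a day, with the main probe set in black and lines joining the arrays of a day. The 2 probe sets of Gli2 and the 2 bright ones of Gli3 are highest at day 8, whereas 1427571_at of Shh stays at 3.14 to 3.76 and 2 Ptch1 probe sets reach at most 5.39.

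Other genes of the pathway were read from lists chosen with earlier results known, each gene by its brightest probe set. Their counts over all 10 arrays are to be read against the shares of all genes that passed. These were 42.4% from day 8 to day 17, 37.3% from day 17 to day 24 and 15.4% for DCI. For DCI on single days they were 9.64% at day 17 and 19.4% at day 24. Counts without the day 8 control array come from a fit with 1 day 8 array and are not to be read against the 42.4%. Among 7 genes of ligand processing and release, none rose and 2 fell from day 8 to day 17. They were Scube3, which encodes a secreted protein of a family that helps release Hedgehog (-0.76), and Disp1, which exports the ligand (-0.47). Without the day 8 control array neither passed, at -0.55 and -0.25. Between days 17 and 24 Scube3 fell by 1.00 and Hhat, the enzyme that attaches palmitate to Hedgehog, by 0.31, with none higher. No gene of this list passed for DCI over all arrays, and at day 24 Disp1 rose by 0.40.

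Among 6 measured reception genes, the co-receptors Boc and Gas1 rose from day 8 to day 17 by 1.21 and 0.58. Boc read 6.10 and 6.30 at day 8 and 7.35 to 7.67 at day 17. Smo, the transducer released by Ptch1, fell by 0.24 and by 0.57 in the 2 steps, and Gpc3, a glypican that competes for Hedgehog, by 0.29 and 0.44. The co-receptor Cdon fell by 0.37 from day 17 to day 24. That made 2 higher and 2 lower in the first step and 3 lower in the second. Without the day 8 control array Boc and Gas1 passed in the first step (1.13 and 0.56), while Smo (-0.30) and Gpc3 (-0.27) did not. DCI lowered Gpc3 by 0.33 over all arrays and, at day 24, Gpc3 by 0.46 and Lrp2, an endocytic receptor, by 1.16. Lrp2 had a different DCI effect on the 2 days (interaction -1.25, limma adjusted p = 0.0293).

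Of 15 genes of signal transduction, 3 rose and 7 fell from day 8 to day 17, or 2 and 4 without the day 8 control array. Between days 17 and 24, 4 rose and 3 fell, a share near that of all genes. Gpr161, a ciliary receptor that restrains the pathway through cAMP, fell by 1.06 and then by 1.05. Sufu, which holds Gli proteins in check, fell by 0.80 and 0.37. The ciliary protein Evc rose by 0.63 in the first step and the kinase Stk36 by 0.47 in the second. None of the 15 passed for DCI over all arrays. At day 24, Prkar1a, a regulatory subunit of protein kinase A, fell by 0.19. Of 6 ciliary transport genes 2 fell in each step (Dync2h1 and Tulp3, then Ift88 and Tulp3), of which Dync2h1 did not pass without the day 8 control array (-0.35), and with DCI Tulp3 rose by 0.26 and Kif3a fell by 0.24. On single days Tulp3 rose by 0.30 at day 17 and Ift122 fell by 0.45 at day 24.

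Of 15 measured genes known to respond to Hedgehog in some tissues, 3 rose and 4 fell from day 8 to day 17, a share near that of all genes, and the counts were the same without the day 8 control array. The mesenchymal factor Osr1 rose by 4.88, while the lung mesenchyme ligand Wnt2 fell by 2.60, the lung and gut mesenchyme factor Foxf1 fell by 2.01 and Tbx2 by 1.32. Foxf1 read 8.96 and 9.13 at day 8 and 6.83 to 7.40 at day 17, with no overlap. From day 17 to day 24, 2 rose and 4 fell, among them Mycn (-1.08) and Tbx2 (-0.90), with Ccnd1 higher by 0.74. With DCI 5 passed as lower and none as higher: Bmp4, a growth factor of distal lung epithelium and gut mesenchyme (-0.69), Bcl2 (-0.31), Osr1 (-0.30), Ccnd2 (-0.23) and Nkx2-2 (-0.37). Nkx2-2 read only 2.36 to 2.93 on all arrays, at the dim end where values are compressed, so its difference says little about its RNA. Bmp4 fell by 0.58 at day 17 and 0.81 at day 24. At day 17 Wnt2 rose by 0.70, and Ccnd1 fell by 0.52 and Ccnd2 by 0.32, and the DCI difference of Ccnd1 changed between days (interaction 0.70, limma adjusted p = 0.00781). At day 24 Mycn fell by 0.61 and Osr1 by 0.44. The list median for DCI was -0.17, against -0.01 for all genes.

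**Figure D5:**
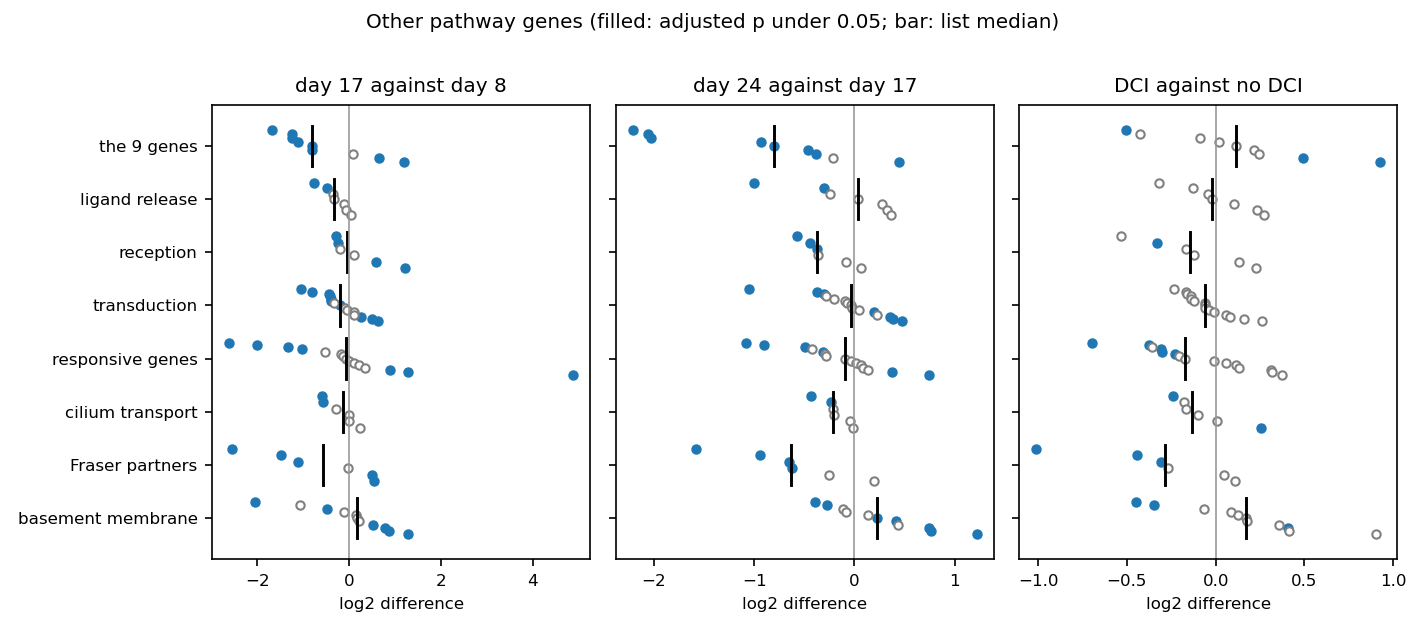
Log2 differences of the 9 genes and of 7 lists of related genes for the 2 steps in time and for DCI, with 1 point per gene, filled where the adjusted p was under 0.05, and a bar at the list median; the horizontal scales differ between panels. In the Fraser partners list 3 of 6 genes are lower with DCI and none higher, and its median is -0.63 from day 17 to day 24.

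The partners of Fras1 and Frem2 in the basement membrane also differed between days. Of 6 measured, 2 rose and 3 fell from day 8 to day 17, and none rose and 4 fell from day 17 to day 24. Without the day 8 control array the first counts were 1 and 2, since Itga8 (-1.01) and Itgb1 (0.25) did not pass. Frem1, the third protein of the complex, read 9.14 and 8.90 at day 8, 6.37 to 6.71 at day 17 and 5.37 to 5.89 at day 24. It fell by 2.55 and 0.94. At day 17, when Fras1 and Frem2 were at their highest, Frem1 was thus already below its day 8 level. Grip1, the adaptor that brings the complex to the cell surface, fell by 1.48 and 0.65. The integrin gene Itga8, whose protein binds nephronectin, fell by 1.12 and 1.58, and nephronectin itself, Npnt, rose by 0.55 and then fell by 0.62. DCI lowered Itga8 by 1.01, Npnt by 0.44 and the integrin subunit Itgb1 by 0.31, which is 3 of 6. At day 17 Itgb1 fell by 0.39. At day 24 Itga8 fell by 1.57, Npnt by 0.66, Grip1 by 0.58 and Itgb1 by 0.22. Of 11 general basement membrane genes 5 rose and 2 fell from day 17 to day 24, with Lama1 (1.22), Col4a1 (0.77) and Col4a2 (0.75) among those that rose. The list median there was 0.22, against -0.63 for the Fras1 and Frem2 partners and -0.01 for all genes.

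The genes with the most similar profiles were found by the root-mean-square difference of log2 values over the 10 arrays, each gene centred on its own mean, among 16397 other genes, for the 8 members with an SD over the arrays of at least 0.5. For Fras1, Frem2 was at rank 2 (0.27), between Chrna7 (0.26) and Sncaip (0.29). For Frem2, Fras1 was at rank 2 (0.27) after Sncaip (0.25), followed by Fbxl7 (0.35). Each of the 2 was thus among the 3 closest genes of the other. For Gli2, Gli3 was at rank 7 (0.19), behind Adam12 (0.16), Elovl6 (0.18) and St6galnac3 (0.18) among others. For Gli3 the closest were Trim59 (0.08), Dbf4 (0.09) and Tbx2 (0.12), with Ptch1 at rank 104 and Gli2 at rank 37. For Ptch1 they were Ppat (0.10), Stxbp5 (0.10) and Zfp469 (0.12), and for Gli1 Rbx1 (0.12), Rad51c (0.13) and Fam72a (0.13), with Hhip at rank 89. The closest to Shh were Ncapg (0.27), Ttk (0.28) and Bub1 (0.28), and to Ihh Has1 (0.10), Cyp2s1 (0.13) and Unc13a (0.14). Ihh lay far from the other members in every case, with distances of 0.81 to 1.69. These distances are descriptions over arrays that share days and treatments.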

How the data were processed

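The authors deposited log2 expression values for 45101 Affymetrix probe sets on 10 arrays. The submitters' processing notes name RMA. RMA corrects background, quantile-normalises arrays and summarises probes, so values are relative to the other genes of an array and low values are compressed. Its version is not given in the sources used here. Of the probe sets, 34945 had 1 gene symbol in the platform annotation, for 18193 genes, and the brightest probe set by mean stood for a gene, with no filter.

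The additive model (day, KGF, DCI) over 10 arrays left 5 residual degrees of freedom, and the models of days 17 and 24 with 1 interaction left 3. Both were fitted in limma 3.58.1 (R 4.3.3) with a mean trend and adjusted by Benjamini-Hochberg over all genes. The DCI term of the additive model was tested on simulated data. The number of arrays limits the precision (median SE 0.10 for DCI). Errors are standard errors of the fit. The members and lists were chosen with earlier results of these data known. Named were the 9 genes, the listed pathway genes that passed for DCI in the Hedgehog and Fraser lists, and up to 4 per list and day step. Probe sets, variance estimates, a filter, scalings, thresholds and left-out arrays were varied. Matched pairs as blocks, list counts without the day 8 control array and the split of directions under other scalings were added after seeing the data. Figures used matplotlib 3.10.9.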

Additional observations from a re-analysis of the deposited data

How the results depend on the processing

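Of 72 results (9 genes in 8 contrasts) 26 passed in limma. Over 216 refits of these 26 with other settings, 190 stayed past the threshold in the same direction, 26 did not (18 of them because a 2-fold size was asked) and 0 turned direction. Over 246 refits without 1 array, 28 were lost and 0 turned. Other probe sets of the same gene were less stable: of 21, 7 passed in the same direction, 9 did not pass and 5 had the opposite sign. Those 5 were Shh from day 8 to day 17 (0.038), Ptch1 from day 17 to day 24 (0.35 and 0.053), Fras1 from day 8 to day 17 (-0.10) and Fras1 for DCI at day 24 (0.070). The cause was not tested. Among the results that did not pass, 7 refits did: Fras1 for DCI, Hhip from day 17 to day 24 and Shh for DCI at day 17 and by day. When a 2-fold size was asked, the number of the 9 genes that passed was 0 for DCI, 0 for DCI at day 17, 0 for DCI at day 24, 5 from day 8 to day 17 and 3 from day 17 to day 24. Of all 18193 genes, 2355 passed at that size from day 8 to day 17 and 734 from day 17 to day 24. When all probe sets of a gene were averaged, 2 of the 9 passed for DCI at day 24, beside 2710 of all 18193 genes. Without 1 array the count ranged from 1 to 3 for DCI at day 17, from 2 to 4 for DCI at day 24 and from 0 to 1 for the DCI by day interaction.

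Over all genes, counts also moved. DCI called 2793 genes, 432 at 2-fold and 1638 to 2834 without 1 array. DCI at day 17 called 1754, with 1061 without a mean trend, 419 at 2-fold and 697 to 1695 without 1 array. DCI at day 24 called 3523, with 646 at 2-fold and 2090 to 3714 without 1 array. The DCI by day interaction called 456, with 138 without a mean trend, 223 with mean probe sets, 814 at an adjusted p under 0.10, 230 at 2-fold and 143 to 454 without 1 array. The day steps called 7713 and 6778 genes, and 2355 and 734 at 2-fold. KGF called 1 gene, 13 at an adjusted p under 0.10, 2 with the 40% dimmest genes removed, 0 without a mean trend or with mean probe sets, 65 on days 17 and 24 alone, and 0 to 65 without 1 array. The labels give no replicate numbers to pair. With the matched pairs of arrays (same day and KGF, or same KGF and DCI) as blocks on days 17 and 24, an alternative chosen after seeing the data, 3 of 9 genes passed for DCI and 7 from day 17 to day 24, with Gli1 lost. In these fits 2531 of all 18193 genes passed for DCI and 6072 from day 17 to day 24.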
